A study of Homo sapiens with 6 samples.

Results

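A set of 10 genes of an inflammatory circuit was followed on whole-transcript arrays. They were 8 chemokines (CXCL16, CXCL1, CXCL2, CXCL3, CXCL5, CXCL8, CXCL10 and CCL20) and the NF-κB feedback inhibitors NFKBIA and TNFAIP3. The cells, with and without knockdown of SND1, were titled HepG2, the name of a liver cancer line. Each gene was the array feature annotated with that symbol alone. All 10 were found among 22465 named genes. A gene with several features would have been represented by the feature chosen by the highest mean signal over the 6 arrays, but each of the 10 had 1. The set of genes was proposed with the signals and the knockdown minus vector changes of these arrays already seen, the fall of CXCL16 included.

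The knockdown group comprised 3 arrays of HepG2 cells that stably carried the pLKO hairpin shSND1-#1, and the control group 3 arrays of HepG2 cells that stably carried the pLKO vector. HepG2, the name given in the sample titles, is an established hepatoblastoma-derived line. Both groups had received the thymidylate synthase inhibitor fluorouracil at 6 µg/mL for 48 h, so 2 drug-treated lines were compared, and a drug response cannot be read from them. All knockdown samples carried the same hairpin, and the labels do not say whether a line was 1 clone or a pool, or whether replicates were grown separately. The p-values therefore reflect sample-to-sample spread that may be technical. SND1 knockdown, other effects of that hairpin and differences between the lines cannot be told apart. In such bulk RNA, fewer cells of a kind and less RNA per cell cannot be told apart either.

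NF-κB is a family of dimeric transcription factors held in the cytoplasm by IκB proteins. Signals from cytokine and pattern-recognition receptors activate the IκB kinase, IκBα is degraded, and the released dimers switch on chemokine genes together with their own inhibitors. NFKBIA encodes IκBα and TNFAIP3 encodes the ubiquitin-editing enzyme A20, and both close the loop. The chemokines CXCL1, CXCL2, CXCL3, CXCL5 and CXCL8 attract neutrophils through CXCR2, CXCL10 attracts activated T cells through CXCR3, and CCL20 attracts CCR6-bearing lymphocytes and dendritic cells. CXCL16 is one of the few chemokines made as a transmembrane protein. It is released by the proteases ADAM10 and ADAM17, and its receptor is CXCR6. SND1, an RNA-binding nuclease and coactivator, has been linked in liver cancer cells to NF-κB activity, miR-221 and CXCL16.

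The windows around the transcription starts show what these genes have in common in sequence. RefSeq windows (GRCh38.p14, 250 bases before to 50 bases after the start) were found for 9 of the 10 genes, with no entry for CXCL16. Of these, 8 held the κB consensus on either strand, against 11.3% of 34943 windows of the same length in the RefSeq table. The shorter motif GGAATTTCC, read on either strand and contained in many of these κB matches, was found in 7 of the 9, against 0.464% of all windows. The shorter motif was chosen after the sequences were seen. The genes were listed as chemokines and feedback genes of NF-κB, so neither contrast with all windows tests the list. CXCL1, CXCL2 and CXCL3 are close paralogs with nearly the same bases around the match, so their matches are not separate cases. The whole windows of CXCL1, NFKBIA and TNFAIP3 are shown for the arrangement of the κB match, which is in capitals.
CXCL1 (plus strand, chr4:73869143-73869442): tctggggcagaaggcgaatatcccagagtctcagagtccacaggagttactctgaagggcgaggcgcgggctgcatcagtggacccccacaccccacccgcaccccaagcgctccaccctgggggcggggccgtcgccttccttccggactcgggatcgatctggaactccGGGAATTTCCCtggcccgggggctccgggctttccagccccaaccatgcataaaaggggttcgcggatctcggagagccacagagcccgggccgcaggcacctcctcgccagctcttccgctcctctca
NFKBIA (minus strand, chr14:35404700-35404999): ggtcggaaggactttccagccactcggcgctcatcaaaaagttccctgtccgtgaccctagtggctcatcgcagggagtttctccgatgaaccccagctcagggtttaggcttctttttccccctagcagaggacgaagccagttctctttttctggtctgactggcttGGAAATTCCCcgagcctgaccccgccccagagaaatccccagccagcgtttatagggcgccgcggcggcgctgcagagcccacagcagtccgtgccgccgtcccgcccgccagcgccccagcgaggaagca
TNFAIP3 (plus strand, chr6:137867009-137867308): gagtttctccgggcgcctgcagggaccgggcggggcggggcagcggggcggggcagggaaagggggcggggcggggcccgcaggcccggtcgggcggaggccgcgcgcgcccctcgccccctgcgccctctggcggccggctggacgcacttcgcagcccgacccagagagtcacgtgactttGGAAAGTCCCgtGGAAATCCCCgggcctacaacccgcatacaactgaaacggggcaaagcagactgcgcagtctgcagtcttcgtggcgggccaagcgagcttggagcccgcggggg

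The remaining chemokine genes are shown by the stretch around one match each, with the match in capitals. In CXCL2, CXCL3 and CXCL5, as in CXCL1, it began 77 to 91 bases before the start, counting both overlapping matches of each gene. The window of CXCL8 held no match to the full consensus and 1 to the shorter motif, 91 bases before the start, and was the 1 window of the 9 with an AP-1 motif (TGANTCA on either strand, 7.72% of all windows).
CXCL2 (minus strand, chr4:74099254-74099283): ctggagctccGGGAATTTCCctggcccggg
CXCL3 (minus strand, chr4:74038749-74038778): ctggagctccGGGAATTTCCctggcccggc
CXCL5 (minus strand, chr4:73998749-73998778): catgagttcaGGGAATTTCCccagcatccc
CXCL8 (plus strand, chr4:73740468-73740496): tgcaaatcgtGGAATTTCCtctgacataa
CXCL10 (minus strand, chr4:76023600-76023629): tctgcaacatGGGACTTCCCcaggaacagc
CCL20 (plus strand, chr2:227813753-227813782): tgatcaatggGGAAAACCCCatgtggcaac
A match is a description of these letters and does not show that the factor binds there.

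The deposited values are log2 signals from RMA, which corrects background, equalises the distribution of signals between arrays and combines the probes of a feature. Medians over all 67528 transcript clusters (probes grouped by locus) lay between 3.65 and 3.73 on knockdown arrays and between 3.58 and 3.69 on vector arrays. The targeted SND1 cluster on chromosome 7, which is also annotated with its intronic transcript, averaged 5.80 ± 0.10 on knockdown arrays and 7.28 ± 0.14 on vector arrays (SD, n = 3 each), with no overlap. Of 12 measured hepatocyte markers, 7 had a mean signal under the 25th percentile over named genes (3.19), ALB (1.83) and AFP (1.50) among them, and 4 were above the median, among them APOA2 (7.83), APOH (6.10) and SERPINA1 (5.57). Such low signals of ALB and AFP go against the liver line named in the sample titles, and the identity of the cells was not tested. No marker passed the test, but some moved with the groups. SERPINA1 had 5.38, 5.38 and 5.31 on knockdown arrays, against 5.92, 5.77 and 5.68 on vector arrays (change -0.43, SE 0.07, limma adjusted p = 0.0831). APOH had 5.67, 6.01 and 5.95 on knockdown arrays, against 6.42, 6.41 and 6.13 on vector arrays (change -0.44, SE 0.11, limma adjusted p = 0.184). Neither marker's groups overlapped, while those of APOA2 did (change 0.08, SE 0.06). The mean log2 signal of the hepatocyte list was 3.38 to 3.47 on knockdown arrays and 3.48 to 3.53 on vector arrays. The median change of that list was -0.003, with 7 negative and 5 positive changes, so its mean does not describe a shift of the whole list. Of 9 leukocyte and endothelial markers, whose mean reached at most 4.13 on knockdown and 4.14 on vector arrays, the lysosomal macrophage marker CD68 was apart: it had 7.92, 7.96 and 7.81 on knockdown arrays, against 8.64, 8.39 and 8.31 on vector arrays (change -0.55, SE 0.09, limma adjusted p = 0.0831). The groups overlapped for CD79A (change 0.16) and VWF (change 0.10). The mean of 5 fibroblast markers was 3.40 to 3.46 on knockdown and 3.39 to 3.49 on vector arrays, with overlapping groups for COL1A1, PDGFRB and COL1A2. The part of these markers in the results was not tested. Signals of different probes are not on one scale of abundance. Percentiles and brightness given here therefore describe array signal and do not rank genes by abundance.

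CXCL16 was lower in the knockdown cells and was the 1 gene of the 10 that passed the test. Its log2 signals were 6.22, 6.46 and 6.48 on the knockdown arrays, against 7.22, 7.11 and 7.06 on the vector arrays. Every knockdown value was below every vector value, and the gap between the groups was larger than the range within either (0.26 within knockdown and 0.17 within vector). The means were 6.38 ± 0.15 in knockdown and 7.13 ± 0.08 in vector cells (SD, n = 3 each). CXCL16 fell 1.68-fold, to 59.6% of the vector signal (log2 change -0.75, SE 0.08, 95% confidence interval -0.94 to -0.55, limma adjusted p = 0.0396 over all named genes). Of the markers, 3 of 12 hepatocyte genes, SERPINA1 and APOH among them, were also lower on all knockdown arrays, without passing the test. So was 1 of 9 leukocyte and endothelial genes, CD68. Of all named genes 11.6% were, and of those above the median signal 18.7%. The part of the markers in this result was not tested. Since the fall of CXCL16 was known when the list was made, its p-value describes the gene and supports nothing about the list.

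Of all named genes, 0.169% passed at a limma adjusted p under 0.05 in either direction and 0.138% passed as lower, and 0.0312% as higher. The count of 1 gene lower and 0 higher among the 10 is therefore that of CXCL16 alone. The exact two-sided permutation p for CXCL16 was 0.1, the smallest that 3 against 3 arrays can give. The change stayed between -0.66 and -0.79 when each array was left out in turn, but limma's adjusted p passed the threshold only without vector replicate 3 (0.0496). It was 0.108, 0.155 and 0.149 without knockdown replicates 1, 2 and 3, and 0.175 and 0.225 without vector replicates 1 and 2. With all arrays, limma's adjusted p for CXCL16 also missed the threshold with dim signals floored (0.155) and with the replicate number as a block (0.234). It missed too with adjustment over all clusters, the family used for SND1 (0.135).

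**Figure D1:**
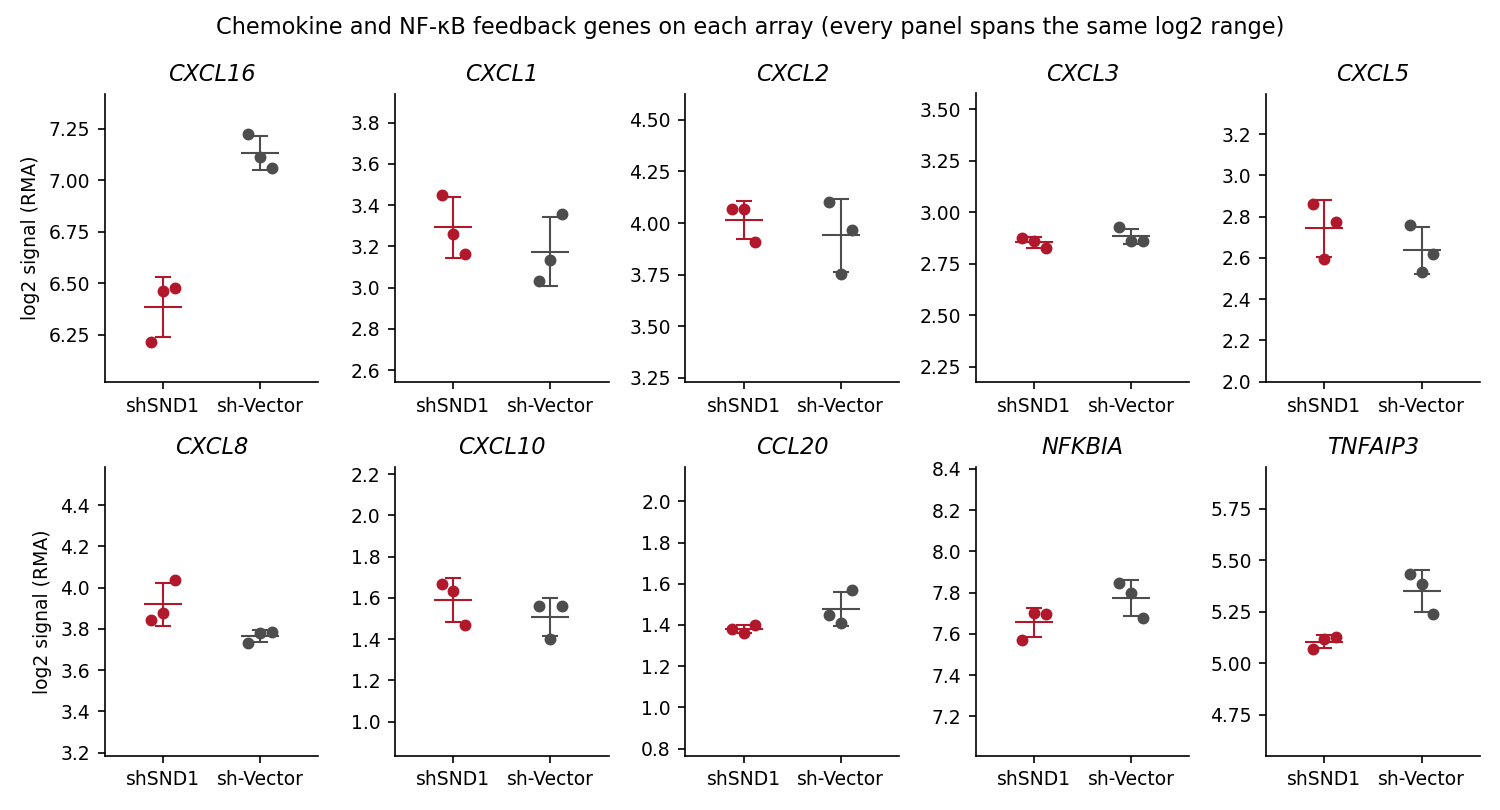
Log2 signal of each of the 10 genes on the 3 shSND1 arrays (red, left) and the 3 sh-Vector arrays (grey, right), with the mean and SD, all panels spanning the same number of log2 units. CXCL16 separates the groups widely (6.22 to 6.48 against 7.06 to 7.22), TNFAIP3 narrowly, and the other chemokines overlap or nearly touch.

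TNFAIP3 did not pass the test, although its groups were apart. Its log2 signals were 5.07, 5.12 and 5.13 on the knockdown arrays, against 5.43, 5.38 and 5.24 on the vector arrays. The knockdown arrays lay close together below the lowest vector array. The change was -0.25 (SE 0.07, 95% confidence interval -0.40 to -0.10, limma adjusted p = 0.192), with means of 5.10 ± 0.03 and 5.35 ± 0.10 in knockdown and vector cells (SD, n = 3 each). Vector replicate 3, the vector array nearest the knockdown range, bears on this size: the change was -0.30 without it (limma adjusted p = 0.0859) and -0.21 without vector replicate 1 (0.467).

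NFKBIA, the gene of IκBα, gave a signal between percentiles 94.9 and 95.6 of named genes on every array. It had 7.57, 7.70 and 7.70 on the knockdown arrays, against 7.85, 7.80 and 7.68 on the vector arrays. The groups overlapped, with vector replicate 3 inside the knockdown range. The change of -0.12 (SE 0.07, limma adjusted p = 0.527) had a 95% confidence interval of -0.28 to 0.04, so a fall beyond 1.21-fold lay outside it.

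CXCL8, the neutrophil chemokine also known as interleukin-8, had the largest positive change of the 10. Its log2 signals were 3.84, 3.88 and 4.04 on the knockdown arrays, against 3.73, 3.78 and 3.78 on the vector arrays. All knockdown arrays were above all vector arrays, while the range within the knockdown arrays was 0.20. The change was 0.15 (SE 0.07, 95% confidence interval 0.00 to 0.31, limma adjusted p = 0.404). This signal stood at percentile 33.2 of named genes.

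The 4 other neutrophil chemokines of chromosome 4 overlapped between the groups. The mean signals of CXCL1, CXCL2, CXCL3 and CXCL5 stood at percentiles 25.6, 35.3, 21.5 and 19.5 of named genes. Without detection calls, whether these genes were expressed was not tested. CXCL1 had 3.45, 3.26 and 3.16 on the knockdown arrays, against 3.03, 3.13 and 3.36 on the vector arrays. CXCL2 had 4.07, 4.07 and 3.91 on the knockdown arrays, against 4.10, 3.75 and 3.96 on the vector arrays. In both genes the highest vector array lay within or above the knockdown values. CXCL3 varied least, with 2.87, 2.86 and 2.83 on the knockdown arrays, against 2.93, 2.86 and 2.86 on the vector arrays. CXCL5 had 2.86, 2.59 and 2.77 on the knockdown arrays, against 2.76, 2.53 and 2.62 on the vector arrays. Their changes were 0.12 for CXCL1, 0.08 for CXCL2, -0.03 for CXCL3 and 0.11 for CXCL5, with limma adjusted p-values from 0.664 to 0.842. The 95% confidence intervals of CXCL1, CXCL2 and CXCL5 reached 0.36, 0.30 and 0.31, so a rise of CXCL1 up to 1.28-fold lay within its interval. CXCL1, CXCL2 and CXCL3 are close paralogs, and whether their probes report one another was not tested.

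CXCL10 and CCL20 gave signals near the bottom of the arrays, at percentiles 4.17 and 2.83 of named genes. CXCL10 had 1.67, 1.63 and 1.47 on the knockdown arrays, against 1.56, 1.40 and 1.56 on the vector arrays, with overlap (change 0.08, SE 0.08, limma adjusted p = 0.698). CCL20 had 1.38, 1.36 and 1.40 on the knockdown arrays, against 1.45, 1.41 and 1.57 on the vector arrays, and its groups did not overlap (change -0.10, SE 0.06, limma adjusted p = 0.57).

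**Figure D2:**
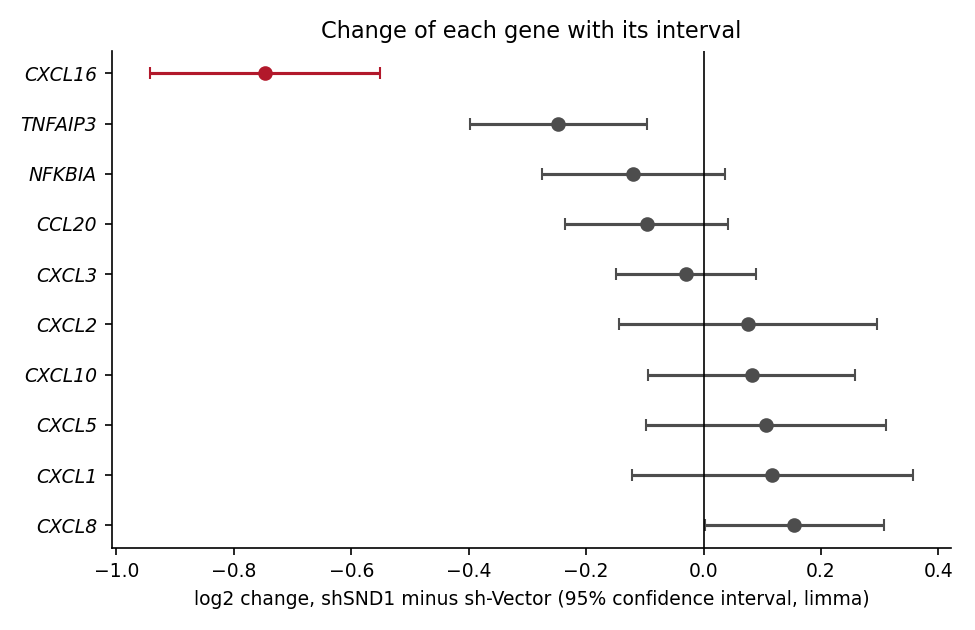
Log2 change of each gene, shSND1 minus sh-Vector, with limma's 95% confidence interval, in red where the adjusted p over all named genes was under 0.05. The interval of CXCL16 (-0.94 to -0.55) lies apart from those of the other 9 genes, of which the lowest is that of TNFAIP3 (-0.40 to -0.10).

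Counted together, the 10 genes split evenly, with 5 negative and 5 positive changes and a median change of 0.02, beside 47.1% negative and a median of 0.01 over all named genes. Knockdown arrays lay wholly below vector arrays for 3 genes (CXCL16, TNFAIP3 and CCL20), which 11.6% of all named genes showed, and wholly above for 1 (CXCL8), which 6.33% showed. At an unadjusted limma p under 0.05, 2 were lower (CXCL16 and TNFAIP3; 7.34% of all named genes) and 1 higher (CXCL8; 4.85%). Of the 10 genes, 3 (CXCL16, NFKBIA and TNFAIP3) had a mean signal above the median of named genes (4.83). The 95% confidence interval of the CXCL16 change overlapped with none of the others, but a difference between genes was not tested.

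**Figure D3:**
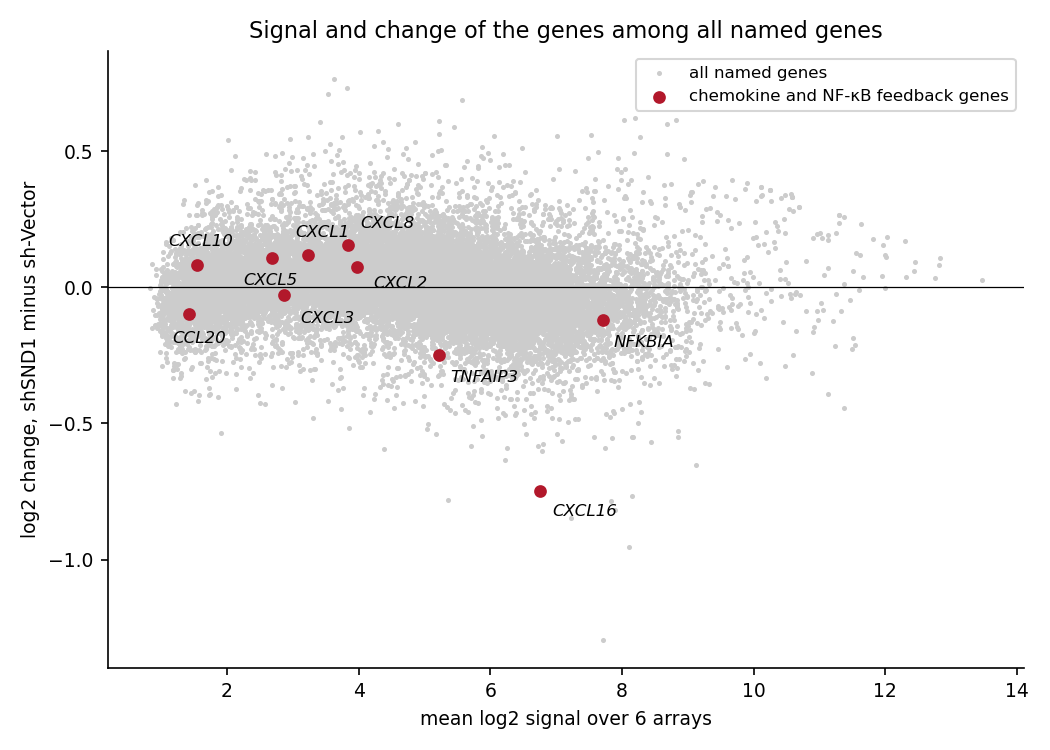
Change (shSND1 minus sh-Vector, log2) against mean log2 signal over 6 arrays for all 22465 named genes (grey) and the 10 genes (red). CXCL16 (signal 6.76, change -0.75) stands at the lower edge of the cloud, while the other 7 chemokines lie at signals from 1.43 to 3.98 with changes from -0.10 to 0.15.

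The chromosomal neighbourhood of the chemokines was then described, from the gene order of the RefSeq table, with the neighbours chosen after the values of CXCL16 were seen and those named chosen after their own. Of the 5 named genes on either side of CXCL16 on chromosome 17, none passed at a limma adjusted p under 0.05, and 2 were lower before adjustment (limma p under 0.05). Over all named genes 7.34% were lower before adjustment, and 11.8% of those above the median signal. The median change of these neighbours was -0.02. TM4SF5, a tetraspan membrane protein gene, had 7.03, 7.04 and 6.99 on the knockdown arrays, against 7.50, 7.39 and 7.30 on the vector arrays, without overlap (change -0.38, SE 0.06, limma adjusted p = 0.0831). The adjacent genes MED11 and ZMYND15 had changes of -0.11 (SE 0.07) and 0.03 (SE 0.06).

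On chromosome 4, 10 named genes run from CXCL8 to CXCL2, among them 5 of the chemokines above, CXCL6 and the platelet chemokine genes PF4 and PPBP. None passed in either direction (2 higher at an unadjusted limma p under 0.05, CXCL8 and the pseudogene PPBPP2), and 8 of the 10 changes were positive, with a median of 0.09. Over all named genes, 4.85% were higher before adjustment. All 10 had mean signals below the median of named genes. Changes were negative in 47.1% of all named genes and in 57.9% of those above the median signal. Positive changes were therefore more frequent among dimmer genes. CXCL6, a further CXCR2 ligand, had 2.87 ± 0.14 in knockdown and 2.82 ± 0.07 in vector cells (SD, n = 3 each; change 0.05, SE 0.08).

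**Figure D4:**
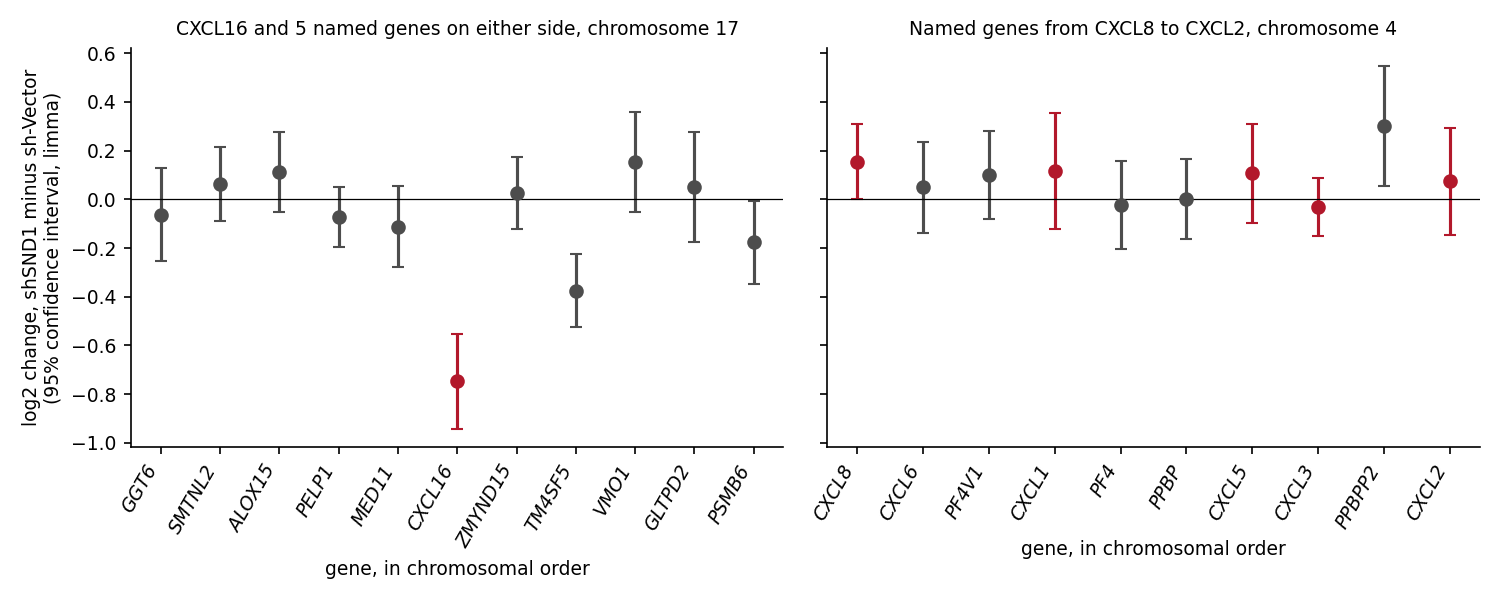
Log2 change (shSND1 minus sh-Vector, with limma's 95% confidence interval) in chromosomal order, for CXCL16 with 5 named genes on either side (left) and for the named genes from CXCL8 to CXCL2 (right), the 10 genes in red. CXCL16 (-0.75) is the lowest on the left, TM4SF5 (-0.38) the next, and the values on the right run from -0.03 to 0.30.

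The genes whose profile over the 6 arrays was most like that of CXCL16 were named by the smallest root mean square difference after each gene was centred on its own mean, among 11230 other genes above the median signal. They were ITGA2, a collagen-binding integrin subunit (difference 0.05 log2), CALU, a calcium-binding protein of the endoplasmic reticulum (0.07), the RNA helicase gene DDX1 (0.07), the carboxypeptidase gene CPA4 (0.08) and the keratin gene KRT13 (0.09). Each showed the same separation of groups, and ITGA2 had 7.69, 7.79 and 7.84 on knockdown arrays, against 8.58, 8.56 and 8.48 on vector arrays. This likeness is a description over 6 arrays and is set mainly by the difference between the groups. CALU and CPA4 are on chromosome 7, as is the targeted SND1, while ITGA2, DDX1 and KRT13 are on other chromosomes. The part of location in this likeness was not tested.

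The partners of CXCL16 did not pass the test. ADAM10 and ADAM17, the proteases that shed CXCL16 from the membrane, had 6.78 ± 0.08 and 6.45 ± 0.07 in knockdown cells, against 6.78 ± 0.05 and 6.44 ± 0.08 in vector cells (SD, n = 3 each). Their changes were 0.01 each, with 95% confidence intervals of -0.13 to 0.15 for ADAM10 and -0.14 to 0.15 for ADAM17. CXCR6, the receptor of CXCL16, gave a signal of 2.02 ± 0.19 in knockdown and 2.03 ± 0.22 in vector cells (SD, n = 3 each), in the dim range of the arrays. Among the 8 measured chemokine receptors, 0 passed in either direction and 0 had an unadjusted limma p under 0.05. CXCR2, the receptor of the neutrophil chemokines, had a change of 0.11 (SE 0.06), and CXCR1, CXCR3 and CCR6 had -0.02, 0.09 and 0.08. The atypical receptor gene ACKR1 had 0.01.

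Of 21 other measured chemokines, none passed (1 lower before adjustment (limma p under 0.05)), and 15 had a positive change (median 0.01). Only 4 of the 21 were above the median signal. Over all named genes 7.34% were lower before adjustment and 47.1% had a negative change, and above the median signal 57.9% had one. CX3CL1, the other transmembrane chemokine, had 5.43, 5.35 and 5.53 on knockdown arrays, against 5.49, 5.58 and 5.51 on vector arrays, with overlap (change -0.09, SE 0.06, limma adjusted p = 0.622). CCL5 and CCL26 had changes of -0.04 (SE 0.06) and -0.25 (SE 0.09, limma adjusted p = 0.332), and the 1 lower was CCL26.

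None of the 5 NF-κB subunit genes passed, and 1 (RELA) was lower before adjustment (limma p under 0.05). All 5 were above the median signal, where 11.8% of named genes were lower before adjustment. RELA, the gene of the main transactivating subunit p65, had 7.24, 7.33 and 7.31 on knockdown arrays, against 7.67, 7.48 and 7.40 on vector arrays. Its groups did not overlap, and its change was -0.22 (SE 0.08, 95% confidence interval -0.40 to -0.04, limma adjusted p = 0.313). The precursor genes NFKB1 and NFKB2 had changes of -0.04 and -0.02, and RELB and REL had 0.03 and 0.00, all with overlapping groups.

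None of the 5 other IκB family genes passed (0 at an unadjusted limma p under 0.05 in either direction), with changes of -0.07 each for BCL3 and NFKBIB and -0.02 for NFKBIE. The lowest and highest changes of that list, named after their values were seen, were -0.10 for NFKBIZ and 0.05 for NFKBID. Of 18 other measured feedback regulators, none passed and 14 had a negative change, with 2 lower before adjustment (limma p under 0.05). Those 2, named after their values were seen, were RNF11 (-0.19, SE 0.06) and TNIP1 (-0.15, SE 0.06), both partners of A20. Of the 18 regulators, 16 were above the median signal. Among all named genes above it, 57.9% had a negative change and 11.8% were lower before adjustment. SQSTM1, ITCH and TAX1BP1 had changes of -0.09, -0.01 and -0.05.

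Of 23 measured IκB kinase and upstream adaptor genes, none passed and 18 had a negative change (median -0.06), with 1 lower before adjustment (limma p under 0.05). That 1, TLR3, the receptor of double-stranded RNA, was named after its values were seen. It had 4.58, 4.91 and 4.80 on knockdown arrays, against 5.20, 5.26 and 5.14 on vector arrays, without overlap (change -0.44, SE 0.09, limma adjusted p = 0.12). The lymphotoxin receptor gene LTBR, the adaptor gene MYD88 and the TNF receptor gene TNFRSF1A had changes of -0.12 (SE 0.06), -0.16 (SE 0.07) and -0.04 (SE 0.06). Of the 23 genes, 18 were above the median signal. There, 57.9% of all named genes had a negative change and 11.8% were lower before adjustment.

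Of 29 other measured NF-κB target genes, none passed, with 8 lower and 1 higher before adjustment (limma p under 0.05). Over all named genes, 7.34% were lower and 4.85% higher before adjustment. Above the median signal, where 16 of the 29 lie, 11.8% of named genes were lower and 4.62% higher. IER3, an early-response survival gene, had 8.86, 8.82 and 8.75 on knockdown arrays, against 9.32, 8.98 and 8.94 on vector arrays, without overlap (change -0.27, SE 0.10, limma adjusted p = 0.344). The cyclin gene CCND1 was the 1 higher, with 10.12, 10.18 and 10.15 on knockdown arrays, against 10.08, 9.98 and 9.92 on vector arrays, and no overlap (change 0.15, SE 0.06, limma adjusted p = 0.353). The syndecan gene SDC4 had a change of 0.06 with overlapping groups. JUNB, an AP-1 subunit gene, had the lowest adjusted p of the list (change -0.34, SE 0.06, limma adjusted p = 0.0831), and the leukocyte adhesion receptor gene ICAM1 a change of -0.17 (SE 0.07). These 2 were named after their values were seen.

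Over all 114 pathway genes outside the 10, 0 passed at a limma adjusted p under 0.05, and before adjustment (limma p under 0.05) 14 were lower and 1 higher. That is 12.3% lower, beside 7.34% of all named genes. Named genes above the median signal were lower in 11.8% of cases, and the 68 pathway genes above it in 16.2%. That split does not match the signals of the pathway genes to those of all named genes. The part of signal in this count was not tested.

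**Figure D5:**
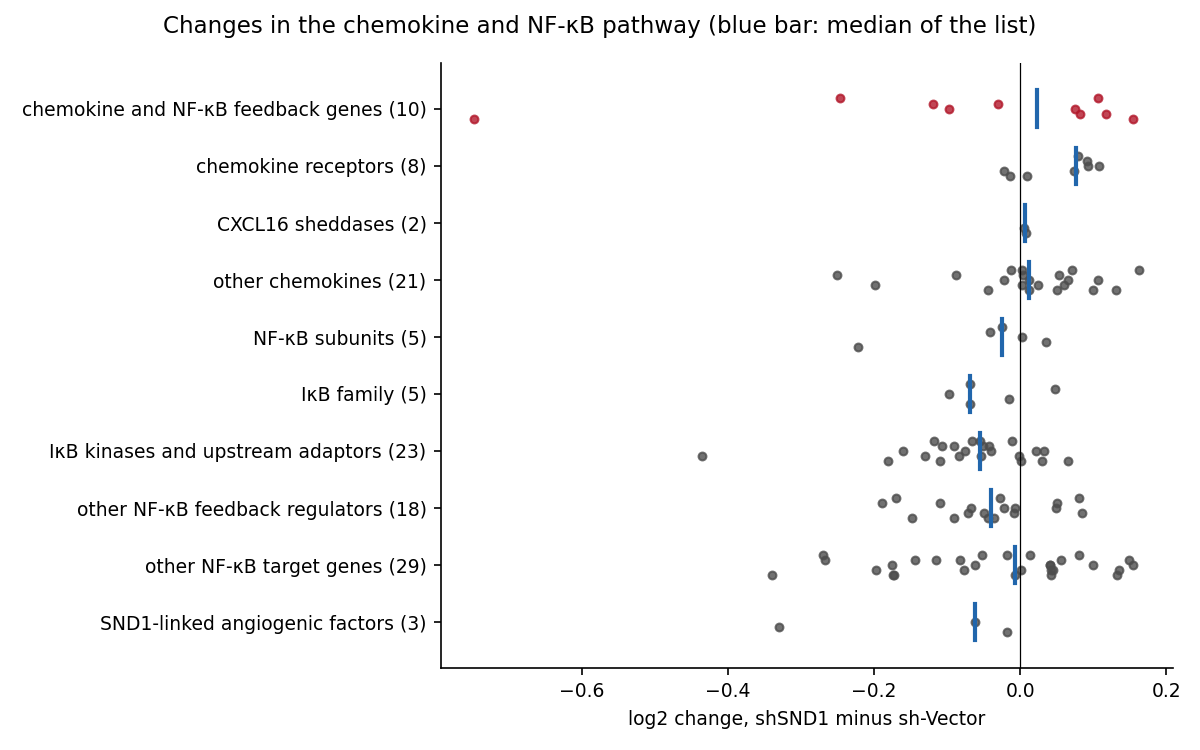
Log2 change (shSND1 minus sh-Vector) of each gene of the chemokine and NF-κB lists, 1 point a gene, with the number measured in brackets and the median of each list as a blue bar. List medians lie between -0.07 and 0.08, and CXCL16 (-0.75) is the lowest point of all lists.

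The microRNA step that has been linked to SND1 and CXCL16 was looked at through the precursor genes. MIR221 and MIR222 lie together on chromosome X, and their 3p products share a seed (bases 2 to 8, in capitals), as the RefSeq sequences (GRCh38.p14) show.
hsa-miR-221-3p: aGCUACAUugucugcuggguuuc
hsa-miR-222-3p: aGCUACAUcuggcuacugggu
MIR221 had 4.95 ± 0.03 in knockdown and 4.97 ± 0.06 in vector cells (SD, n = 3 each; change -0.02, SE 0.05, limma adjusted p = 0.913). MIR222 had 4.57, 4.24 and 4.39 on knockdown arrays, against 4.95, 4.80 and 4.45 on vector arrays, with overlap through vector replicate 3 (change -0.33, SE 0.14, limma adjusted p = 0.387). These array features report the gene's transcript and not the mature microRNA. For the angiogenic factor gene VEGFA the change was -0.06 (SE 0.05, limma adjusted p = 0.687).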

How the data were processed

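The deposited values are RMA log2 signals, per the submitters' processing notes. No source used here gives the version or the settings. The values carry no detection calls, and the number of arrays limits the precision. The table has 70523 features, of which 2995 are not transcript clusters and were dropped. In GEO's platform annotation 23781 clusters carry 1 symbol and 1543 carry several, while 42204 are unnamed here. The brightest cluster stood for each of 479 genes with several, which gave 22465 named genes. Groups came from the sample titles. Knockdown minus vector was fitted over all named genes and 6 arrays with lmFit and eBayes of limma 3.58.1 (R 4.3.3), with Benjamini-Hochberg adjustment over all of them and a threshold of 0.05. The script was tested on simulated data. SND1 was adjusted over all clusters.

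The 10 genes, the pathway lists and the tests were chosen with earlier results of these data known. The text names the 10 genes, the receptors, proteases, NF-κB subunits and microRNA genes given, per list the members past the threshold and the 3 brightest, and the 5 profiles nearest to CXCL16. Other genes are marked as named after their values were seen, except ALB and AFP, which are named as defining markers. List genes annotated only jointly with another symbol, or with no row in the table used, were not analysed here. No coordinates of the array are printed, and promoter coordinates are those of the RefSeq table. Figures were drawn with matplotlib 3.10.9.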

Additional observations from a re-analysis of the deposited data

How the results depend on the processing

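CXCL16 was lower under all 15 alternatives, with changes from -0.80 to -0.66, but its limma adjusted p passed the threshold under 7 of them. It missed with the replicate block (-0.75, adjusted p = 0.234), with signals floored at the 30th percentile (-0.75, 0.155) and with adjustment over all clusters (-0.75, 0.135). When each array was left out in turn, the change ran from -0.79 to -0.66 and the adjusted p from 0.0496 to 0.225. Under those 3 settings the count of the 10 genes past the threshold as lower was 0, over the arrays left out it was 0 to 1, and with array weights it was 2, since TNFAIP3 then passed (-0.27, limma adjusted p = 0.011). The change of CXCL2, 0.08 as reported, was -0.018 without vector replicate 2, and its changes without 1 array ran from -0.02 to 0.16. The count of named genes past the threshold, 31 lower and 7 higher, was 1 and 0 with the replicate block, 187 and 84 without the dimmest 40% of genes, 49 and 12 after repeated quantile normalization, 14 and 1 with arrays centred on their medians, 0 and 0 with the floor, 106 and 27 with a variance trend and robust fit, 1653 and 1559 with array weights, and 3 and 0 with adjustment over all clusters. Without 1 array it was 0 to 29 lower and 0 to 6 higher. Pathway genes past the threshold, 0 as reported, numbered 2 lower without the dimmest genes, 1 lower with the variance trend, and 11 lower and 3 higher with array weights. SND1 had a change of -1.49 with the block (adjusted p = 0.142) and with the floor (0.178), and -1.55 to -1.41 without 1 array (0.0411 to 0.249). Over genes above the median signal, with each group centred on its own mean, arrays with the same replicate number did not deviate together (correlations -0.36, 0.11 and -0.49). That centring ties the correlations to one another, so they cannot decide whether arrays were paired. The highest correlation, 0.57, was that of knockdown replicate 1 with vector replicate 3. A batch shared between arrays was not tested. CXCL10 and CCL20 lay at or under the floor. No alternative moved the median change of all genes by over 0.1. The causes of these differences were not tested.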
